A study of Mus musculus with 12 samples.

Results

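Spinal cords of mice carrying a deletion in Gars were compared with those of their wild-type (WT) counterparts in the 6 libraries whose titles number the mice from 7 to 12, out of 12 libraries in the series. These 6 were chosen by their measured levels of blood and skeletal muscle RNA, which were low, so those levels describe the choice and were not tested. The genotype is written ETAQ+/- in the labels for the heterozygous mice 8, 9 and 11 (n = 3, called ETAQ here) and ETAQ+/+ for the WT mice 7, 10 and 12 (n = 3). All were 8 weeks old on a mixed B6J;FVB background, and polyA RNA of the whole cord was sequenced. Mice 7, 8, 9, 10 and 12 were female and ETAQ mouse 11 was male. The other 6 mice, numbered 1 to 6, comprised the 3 WT males 2, 3 and 4, the ETAQ female 1 and the ETAQ males 5 and 6. They share no animal with mice 7 to 12 and serve for values side by side. Apart from the mouse numbers the labels say nothing of litters or days, so the p values measure the spread between these mice.

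Gars encodes glycyl-tRNA synthetase, which joins glycine to its tRNA, and the letters ETAQ name the amino acids that the deletion removes. Dominant changes in the human gene cause a neuropathy of the long motor and sensory axons. Motor neurons are few among the cells of the cord, and vessels, meninges and resident macrophages (microglia) contribute most of the RNA of non-neural origin. Genes of those cells are often low in whole-cord RNA, and adhering blood, bone marrow, muscle or nerve root adds to some of them. The question put to the cleaner libraries was what the genotype contrast shows in vascular, meningeal, immune and low-expressed neuronal genes when the other libraries are out of the fit.

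The 6 libraries held 27394828 to 32801037 expected counts, and a count of 0 allows up to 3 counts, or 0.0915 to 0.11 CPM (counts scaled by the library total), depending on the library. Summed over the list of each tissue, red cell genes made up 143 to 275 CPM in mice 7 to 12, against 1930 to 3570 in mice 1 to 6. Skeletal muscle genes stood at 10.4 to 13.5 against 85.7 to 1180. Marrow neutrophil genes, which the choice did not name, stood at 0.793 to 4.55 against 100 to 190, and Schwann cell genes at 92.2 to 102 against 292 to 622. Cord markers were present in all 6 libraries, with Snap25 of neurons at 2100 to 2280 CPM, Slc6a5 of glycinergic neurons at 553 to 606, Aqp4 of astrocytes at 840 to 1020 and P2ry12 of microglia at 20.2 to 25.2. Xist, made from the silenced X chromosome of females, was at 395 to 460 CPM in the 5 females and at 0.212 in mouse 11, as its label says. The first principal component of the 6 libraries carried 29.1% of the variance, with mouse 12 at -36 and mouse 11 at 25.3. The labels' protocols mention a pair of KAPA library kits but do not assign mice to them, so a kit difference between mice 1 to 6 and mice 7 to 12 was not tested.

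**Figure D1:**
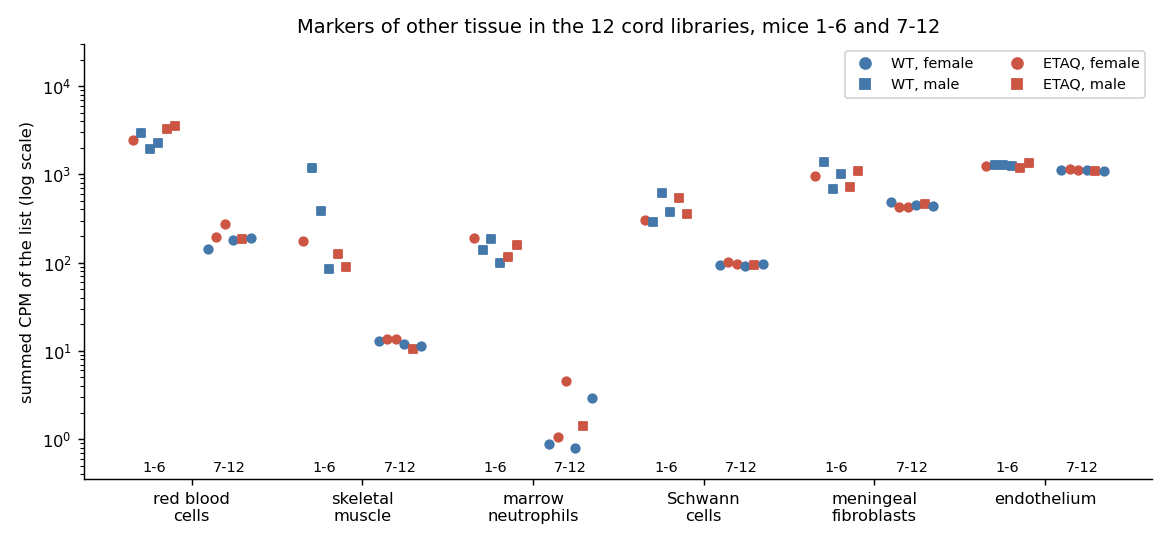
Summed CPM (log scale) of marker lists of 6 tissues in each of the 12 libraries, with 1 point per library, mice 1 to 6 on the left and mice 7 to 12 on the right of each tissue, coloured by genotype, round for females and square for males. In mice 7 to 12 the red cell genes lie between 143 and 275 CPM, far below the 1930 to 3570 of mice 1 to 6. Meningeal genes lie between 425 and 484 against 682 to 1390, and endothelial genes between 1090 and 1150 against 1170 to 1350.

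In mice 7 to 12, 15 of 38 genes tested of the integrated stress response rose in ETAQ cords and 10 of 19 motor neuron genes fell. In the lists of vessels, meninges and immune cells, 2 of 74 vascular, 1 of 26 meningeal and 2 of 88 immune genes fell. Members of these lists can be made by neurons or astrocytes too, as Spp1 and Igfbp2 are, so a fall is not assigned to a cell type. Of 16487 genes tested, 202 (1.23%) passed an adjusted p of 0.05 in edgeR's quasi-likelihood test, 54 higher (0.328%) and 148 lower (0.898%) in ETAQ. Beside these, 1729 genes (10.5%) had an unadjusted p under 0.05. Most of these changes were small, with a median size of 0.44 on the log2 scale over the 202 calls, and 42 reached a 2-fold change. The normalised CPM of the genotypes did not overlap for any of the 202, nor for 2736 genes in all (16.6%). In simulated counts for this fit with 16487 genes, 16% of genes changed 1.2-fold, 66% changed 1.5-fold, 86% changed 2-fold and 96% changed 4-fold were found, while 10.8% of all genes called had not been changed. Changes near 1.2-fold were therefore mostly below what 3 mice against 3 could call. Leaving out 1 mouse gave 120 to 175 calls, with 122 without mouse 8 and 120 without mouse 11, and 92 of the 202 were called in each of the 6 leave-outs.

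Gars itself (chromosome 6, 55038007 to 55079500, positions throughout on GRCm38 from GENCODE M21) stood at 129, 133 and 128 normalised CPM in WT mice 7, 10 and 12 and at 142, 152 and 150 in ETAQ mice 8, 9 and 11. All 3 ETAQ mice lay above all WT mice, by 0.19 ± 0.04 (SE) on the log2 scale (edgeR adjusted p = 0.0314). The call was lost when any mouse was left out, with adjusted p values of 0.0525 (without mouse 8), 0.0676 (10), 0.0883 (12), 0.0928 (7), 0.116 (9) and 0.176 (11). Counts of the gene do not tell the deleted allele from the normal one, so they do not check the genotype labels.

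Of the 38 integrated stress response genes tested, 15 rose and none fell, beside 0.328% higher and 0.898% lower over all genes. The other 23 did not pass, and the list's median log2 fold change was 0.31 against 0.003 over all genes. This response couples amino acid shortage and other stresses to the transcription factor ATF4. Fgf21, a hormone gene that ATF4 can switch on (chromosome 7, 45613886 to 45615490), had 0, 3 and 1 counts in WT mice 7, 10 and 12 and 174, 212 and 195 counts in ETAQ mice 8, 9 and 11. The WT libraries were at or under the limit that a count of 0 allows, and every ETAQ library was far above it. Fgf21 thus passed the filter on low counts through the ETAQ libraries alone, so its place among the 38 is not independent of its rise. The summed counts, scaled by library totals, gave a ratio of 153 with an exact 95% interval of 59.5 to 564, which covers counting error only (edgeR adjusted p = 1.15e-07). Atf4 itself rose from 67.6, 68.9 and 75.6 normalised CPM in WT to 94.2, 102 and 98.2 in ETAQ (log2 fold change 0.47 ± 0.05, edgeR adjusted p = 0.000182). Slc7a1, a transporter of arginine and lysine, rose from 75.4, 78.4 and 71.3 to 110, 111 and 112 (0.57 ± 0.04, edgeR adjusted p = 1.2e-05), and its relative Slc7a3 from 6.76, 6.13 and 5.92 to 12.9, 11.4 and 12 (0.95 ± 0.09). Neither transporter overlapped between the genotypes. In mice 1 to 6, 16 of the list's 38 genes rose and none fell, with a median of 0.29, where 145 of 16904 genes (0.858%) passed, 0.337% higher and 0.521% lower. When 1 of mice 7 to 12 was left out, 8 to 14 of the 38 rose, with 8 without mouse 11.

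Nupr1, a small chromatin protein of stressed cells (chromosome 7, 126623249 to 126630861), was called in mice 7 to 12 and not in mice 1 to 6. It stood at 0.934, 0.986 and 0.885 normalised CPM in WT and at 2.69, 2.99 and 2.84 in ETAQ, with a narrow spread in both and no overlap. Its log2 fold change in mice 7 to 12 was 1.6 ± 0.18 (edgeR adjusted p = 0.00028), and the call was kept in each leave-out. In mice 1 to 6 the value was 0.68 (adjusted p = 0.746), and over all 12 mice the adjusted p was 0.354. The difference between the sets had an unadjusted p of 0.103 and was not a call. Serpinf1, which encodes the secreted pigment epithelium-derived factor, a protein that restrains vessel growth and protects neurons, rose from 10.1, 11.3 and 8.95 to 18.8, 21.1 and 18.7 normalised CPM. Its log2 fold change was 0.95 ± 0.09 (edgeR adjusted p = 0.000105) in mice 7 to 12 and 0.65 (adjusted p = 0.0802) in mice 1 to 6.

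The promoters of genes that rose were read because several of these genes moved together, and the sequences below show the one motif searched, TGATGNAA, on either strand (its reverse complement is TTNCATCA), which is a form of the element that ATF4 and its C/EBP partners are known to bind. The motif was chosen with the results known. Promoters are RefSeq sequences of GRCm38.p6, running from 250 bases before to 50 after the start of each gene. The motif was in 11 of the 36 higher genes that had a promoter in the table (30.6%), in 2 of the 95 lower genes (2.11%) and in 4.51% of all 27025 promoters. A match describes these letters only. The stretches are printed 5′ to 3′ on the strand of the gene, with the motif in capitals, for stress hormone and enzyme genes (Fgf21, Chac1), for Nupr1 and Serpinf1 above, and for Avil and Fbln5, which come below under neurons and vessels. They lie at chr7:45615596-45615655 (minus strand), chr2:119351023-119351082 (plus), chr7:126625547-126625606 (minus), chr11:75422624-75422680 (minus), chr10:127000666-127000708 (plus) and chr12:101818575-101818634 (minus), in the order of the lines.
Fgf21: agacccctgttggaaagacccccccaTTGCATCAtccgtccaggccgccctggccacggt
Chac1: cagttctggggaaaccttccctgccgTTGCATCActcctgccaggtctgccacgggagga
Nupr1: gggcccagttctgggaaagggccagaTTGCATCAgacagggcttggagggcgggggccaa
Serpinf1: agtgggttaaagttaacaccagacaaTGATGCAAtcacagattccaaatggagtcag
Avil: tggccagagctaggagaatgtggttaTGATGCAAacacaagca
Fbln5: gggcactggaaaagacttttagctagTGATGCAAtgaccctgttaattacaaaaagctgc

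The 6 stretches hold TGATGCAA on one strand or the other. Before their starts, Aars, Asns and Gars hold the motif too, and in Asns and Gars the letter at its N differs from that of the 6. Distances are counted from the RefSeq starts of the promoter table, and the start of Nupr1 there lies inside the GENCODE span given above. The motif starts 17 bases before the start of Avil, 31 before Serpinf1, 110 before Nupr1, 124 before Fbln5, 139 before Fgf21 and 193 before Chac1. Chac1, a glutathione-degrading enzyme gene, rose by 0.79 ± 0.1 on the log2 scale (edgeR adjusted p = 0.00146).

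Among vascular genes, 2 of the 74 tested fell and none rose (2.7% called, against 1.23% of all genes), and the median log2 fold change of the 74 was 0.04. The share rests on 2 genes, and neither was called in every leave-out. Here and below, fewer cells of a type and less RNA in each cell cannot be told apart in bulk tissue. Mfsd2a, the lipid transporter that endothelial cells need for a tight blood-brain barrier (chromosome 4, 122946850 to 122961188), stood at 32.8, 33.4 and 40.4 normalised CPM in WT and at 26.7, 26.6 and 28 in ETAQ. The ETAQ mice lay close together below all WT mice, and WT mouse 12 was the highest. The log2 fold change was -0.39 ± 0.08 (edgeR adjusted p = 0.03). The call was lost without mouse 12 (adjusted p = 0.0588), 11 (0.0938), 8 (0.143) or 9 (0.157), and with a sex term, which takes mouse 11 out of the estimate (0.0961). Apln, the peptide ligand of the apelin receptor of vessels (chromosome X, 48025146 to 48034853), stood at 59.5, 60.4 and 67.8 in WT and at 51.5, 54.7 and 49.3 in ETAQ, again without overlap. Its log2 fold change was -0.27 ± 0.06 (edgeR adjusted p = 0.0414), and the call was lost without any mouse, at adjusted p values of 0.0507 (without mouse 7), 0.0548 (9), 0.0785 (10), 0.101 (12), 0.167 (8) and 0.216 (11). Averaged over the 6 mice and scaled by gene length, Mfsd2a stood at 34 TPM and Apln at 33.5 TPM.

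The remaining vascular genes did not pass the test. Of 34 genes of endothelium and the blood-brain barrier, 1 fell, 17 log2 fold changes were positive and 17 negative. Cldn5, the main tight junction protein of brain vessels, stood at 28.2, 30.6 and 19.2 normalised CPM in WT and at 29.0, 28.9 and 29.5 in ETAQ (log2 fold change 0.16 ± 0.18, edgeR adjusted p = 0.825). WT mouse 12 alone was low for Cldn5 and was high for Slc2a1, the glucose transporter of the barrier, at 141 against 96.5 to 107 in the other 5. None of the 18 genes of pericytes and smooth muscle passed, with Vtn (vitronectin) at 0.15 ± 0.06 and Notch3, the receptor of vessel wall cells, at -0.12 ± 0.05 (adjusted p values of 0.327 and 0.448). Aplnr, the receptor for apelin, stood at 34.2, 44.7 and 31.5 in WT and at 56.3, 49.1 and 49.3 in ETAQ (0.49 ± 0.15, edgeR adjusted p = 0.349), opposite in sign to its ligand. It passed as higher without WT mouse 10 (adjusted p = 0.000855). Agt, which encodes the angiotensin precursor, was at 0.17 ± 0.05 (edgeR adjusted p = 0.127) and passed as higher in DESeq2 (adjusted p = 0.0478) and, at 0.31, in mice 1 to 6 (edgeR adjusted p = 0.00544). The summed level of the 34 endothelial genes was 1090 to 1130 CPM in WT and 1090 to 1150 in ETAQ.

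Some called genes known from the vessel wall and its matrix lay outside the lists. Bulk RNA does not show which cells of the cord made them. In the pericyte and smooth muscle list, 13 of 18 log2 fold changes were positive, 5 were negative and none passed. The genes named below were picked after their values were seen, form no list and carry no count of their own. Col4a1, a chain of basement membrane collagen, stood at 55.2, 53.0 and 49.6 normalised CPM in WT and at 61.8, 63.7 and 61.6 in ETAQ (log2 fold change 0.25 ± 0.05, edgeR adjusted p = 0.0198). The call was lost without mouse 12 (0.0596), 8 (0.0745), 10 (0.0785), 11 (0.0883) or 9 (0.106). Fbln5, an organiser of elastic fibres, rose from 7.22, 6.91 and 7.01 to 9.55, 9.65 and 9.91 (0.46 ± 0.08, edgeR adjusted p = 0.0161), with the call lost without mouse 9 (0.0656), 8 (0.0745), 10 (0.0802) or 11 (0.0983). Ddr2, a collagen receptor, rose from 5.75, 5.95 and 6.94 to 12.6, 11.5 and 12.6 (0.98 ± 0.1, edgeR adjusted p = 0.00012), and passed in all 6 leave-outs. None of these 3 was called in mice 1 to 6, where the log2 fold changes were 0.13, 0.27 and 0.79. Called genes for secreted or surface proteins also fell. Fstl1, a follistatin-like protein, was at -0.22 (edgeR adjusted p = 0.0148), the secreted protease Htra1 at -0.25 (0.0133) and the surface protein Plxdc1 at -0.44 (0.0134). The growth factor Pdgfd was at -0.44 (edgeR adjusted p = 0.0111) and the binding protein Igfbp4 at -0.35 (0.0405). In the order named, they were called in 2, 4, 3, 5 and 1 of the 6 leave-outs. Cav1, the coat protein of caveolae in endothelium, fell from 22.7, 25.4 and 23.1 to 18.0, 19.8 and 17.9 (-0.35 ± 0.07, edgeR adjusted p = 0.0281), with the call lost without mouse 12 (0.0546), 8 (0.122), 10 (0.134) or 11 (0.144). Mrvi1, a partner of the inositol trisphosphate receptor in smooth muscle, fell from 11.3, 11.9 and 10.1 to 4.47, 3.84 and 5.11 (-1.31 ± 0.12, edgeR adjusted p = 5.71e-05), and passed in all 6 leave-outs. For each gene named in this paragraph the values of the genotypes did not overlap in mice 7 to 12.

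Among 26 meningeal genes tested, 1 fell and none rose (3.85% called, resting on that gene, against 1.23% of all genes). The median log2 fold change was -0.01, with 13 positive and 13 negative. Igfbp2, an insulin-like growth factor binding protein that fibroblasts of the meninges and astrocytes make (chromosome 1, 72824503 to 72852474), stood at 9.63, 11.4 and 11.4 normalised CPM in WT and at 4, 6.08 and 6.51 in ETAQ. The genotypes did not overlap, and mouse 8 was the lowest. The log2 fold change was -0.97 ± 0.16 (edgeR adjusted p = 0.0241), and the call was lost without mouse 9 (0.0722), 10 (0.0997) or 12 (0.126). In mice 1 to 6 Igfbp2 ranged from 15.1 to 32.1 in WT and from 8.73 to 16.2 in ETAQ, which overlapped (log2 fold change -0.74, adjusted p = 0.683). The defining genes of meningeal fibroblasts did not pass in mice 7 to 12. Col1a1, the chain of fibrillar collagen, stood at 10.3, 10.6 and 8.57 in WT and at 11.8, 10.2 and 10.6 in ETAQ, and Dcn, a small proteoglycan of fibroblasts, at 11.8, 13.7 and 9.53 against 11.9, 10.6 and 10.7. The summed level of the meningeal list was 439 to 484 CPM in WT and 425 to 458 in ETAQ, so the fall of Igfbp2 came without a separation of the list between genotypes.

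Among 88 immune genes tested, 2 fell and none rose (2.27% called, against 1.23% of all genes). Their median log2 fold change was 0.09, and 67 of the 88 values were positive, beside 8415 of 16487 over all genes. Cd55, the decay-accelerating factor that shields cells from complement (chromosome 1, 130439027 to 130462744), stood at 11.7, 11 and 12 normalised CPM in WT and at 7.08, 6.89 and 7.18 in ETAQ. The genotypes were far apart relative to their spread, at -0.71 ± 0.08 on the log2 scale (edgeR adjusted p = 0.000478), and the call was kept in all 6 leave-outs. It was also called in mice 1 to 6 (-0.68, adjusted p = 0.00372). Spp1, the secreted phosphoprotein osteopontin, which microglia make when activated and large motor neurons make at rest (chromosome 5, 104435118 to 104441050), fell from 71.8, 86.1 and 84.4 to 59.7, 55.3 and 62.2 (-0.45 ± 0.07, edgeR adjusted p = 0.0198). Its call was lost without mouse 9 (0.0752), 12 (0.0804) or 8 (0.128). Both genes are uncertain in part, since 6.13% of the 75-base sequences of Cd55 and 8.55% of those of Spp1 occur in transcripts of other genes. Length-scaled levels were 8.68 TPM for Cd55 and 103 TPM for Spp1, averaged over the 6 mice.

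**Figure D2:**
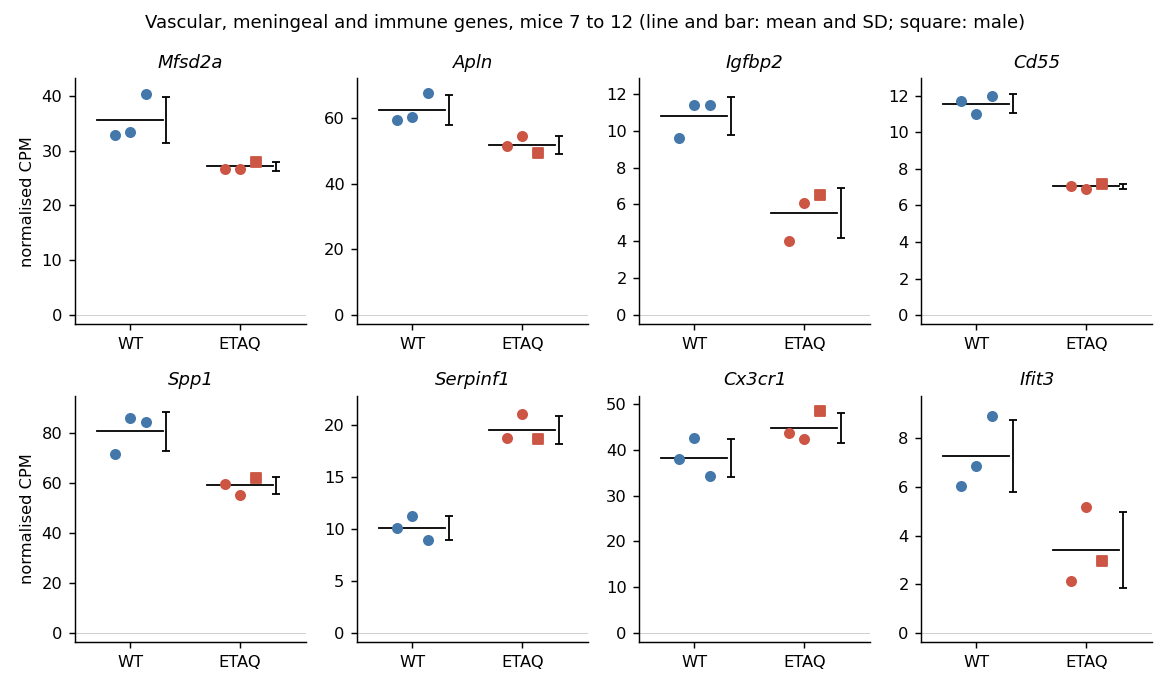
Normalised CPM of 8 vascular, meningeal and immune genes in mice 7 to 12, with 1 point per mouse (square for the male mouse 11), a line at the mean and a bar of 1 SD per genotype (n = 3). Mfsd2a, Apln, Igfbp2, Cd55 and Spp1 are lower and Serpinf1 is higher in all 3 ETAQ mice, while Cx3cr1 overlaps between the genotypes and Ifit3 spreads from 2.14 to 5.17 within ETAQ.

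None of the 20 genes of homeostatic microglia passed the test in mice 7 to 12, with 2 at an unadjusted p under 0.05. Their summed level was 487 to 531 CPM in WT and 533 to 578 in ETAQ, so the sums did not overlap, and 16 of the 20 log2 fold changes were positive, the median being 0.09. Cx3cr1, the fractalkine receptor of microglia, stood at 37.9, 42.5 and 34.3 in WT and at 43.7, 42.3 and 48.5 in ETAQ (log2 fold change 0.23 ± 0.08, edgeR adjusted p = 0.328). Csf1r, the receptor on which their survival depends, was at 0.10 ± 0.04 (adjusted p = 0.377), and P2ry12, the receptor lost on activation, at 0.09 ± 0.08 (adjusted p = 0.761). For Csf1r, 13.9% of the 75-base sequences also occur in other genes. Of 16 genes of activated microglia, 12 log2 fold changes were positive and 4 negative, with a median of 0.07. The list's summed level was 1710 to 1890 CPM in WT and 1860 to 1900 in ETAQ, which overlapped. Spp1 fell and the other 15 did not pass. Lgals3 (galectin-3) among them stood at 1.40, 1.97 and 1.39 in WT and at 0.654, 0.715 and 1.02 in ETAQ, lower in all 3 ETAQ mice without passing (adjusted p = 0.0991).

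The macrophages and leukocytes of the borders were mostly under the filter on low counts, which left 11 of 29 genes tested and none called. Genes of T cells were near 0, with at most 3 counts of Cd3e and 8 of Cd8a in any of the 6 libraries. H2-Ab1, a chain of the MHC class II molecule that presents antigen, stood at 0.719, 1.08 and 0.714 normalised CPM in WT and at 1.38, 1.59 and 1.72 in ETAQ, without overlap and without passing (log2 fold change 0.89 ± 0.24, edgeR adjusted p = 0.124). Of 25 interferon and MHC class I genes none passed, and 19 log2 fold changes were positive and 6 negative, with a median of 0.09. Ifitm3 stood at 8.23, 9.12 and 9.73 in WT and at 10.8, 10.4 and 11.5 in ETAQ. It was higher in all 3 ETAQ mice without passing (log2 fold change 0.27 ± 0.09, edgeR adjusted p = 0.254). Ifit3, which interferon induces, stood at 6.04, 6.87 and 8.91 in WT and at 2.14, 5.17 and 2.94 in ETAQ (log2 fold change -1.08 ± 0.35, edgeR adjusted p = 0.368). It passed in DESeq2 on all 6 mice (adjusted p = 0.000961) and in edgeR when mouse 9, the highest of the ETAQ mice, was left out (adjusted p = 0.00854), and 41.1% of its 75-base sequences are shared with other genes. The cytokine genes Il1b, Il6 and Tnf had at most 4, 1 and 3 counts in a library and were not tested. A change in them was not detectable at this depth.

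**Figure D3:**
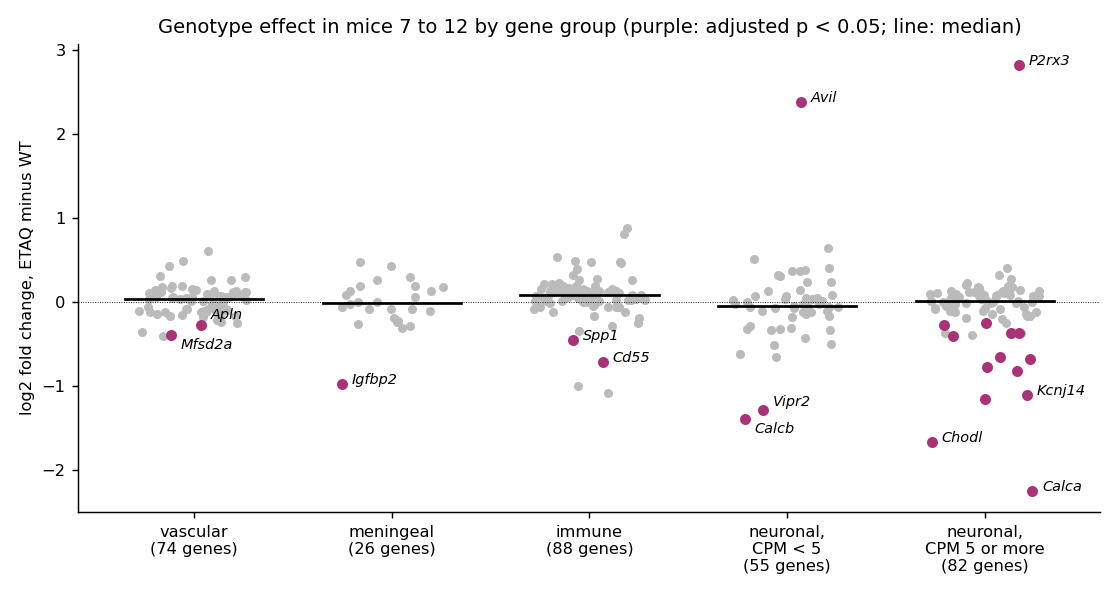
Log2 fold change of ETAQ against WT in mice 7 to 12 for every tested gene of the vascular (74), meningeal (26) and immune (88) lists and of the neuronal lists below (55) and above (82) a mean of 5 CPM, with 1 point per gene, purple where the adjusted p was under 0.05 and a line at the median. The medians lie near 0 in all 5 groups, and the called genes are mostly lower.

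Neuronal genes of low expression, set here as list members with a mean under 5 normalised CPM over the 6 mice, numbered 75, of which 55 passed the filter and 20 did not. Of the 55, 1 rose (Avil) and 2 fell (Calcb and Vipr2), which is 5.45% called against 1.23% of all genes, and the median log2 fold change was -0.04. With 5 counts in WT mouse 10, under the minimum count of 10, Avil met the filter only with ETAQ libraries counted in. Its place among the 55 is therefore not independent of its rise. Of the 82 tested neuronal genes at 5 CPM or more, 1 rose and 13 fell, with a median of 0.01. With 2 CPM as the limit, 32 were tested and only Avil was called. Calcb, which encodes the beta form of the peptide CGRP and is made by motor and sensory neurons (chromosome 7, 114718643 to 114723365), stood at 4.96, 5.76 and 4.59 normalised CPM in WT and at 2.07, 1.72 and 2.07 in ETAQ. The genotypes were well apart, at -1.39 ± 0.15 on the log2 scale (edgeR adjusted p = 0.000227), and the call was kept in all 6 leave-outs. In mice 1 to 6 Calcb was at -0.88 without passing (adjusted p = 0.102), and the difference between the sets had an unadjusted p of 0.0673. Vipr2, a receptor for vasoactive intestinal peptide and PACAP (chromosome 12, 116077726 to 116146261), stood at 3.74, 4.04 and 4.53 in WT and at 2.07, 1.24 and 1.79 in ETAQ. It fell by 1.28 ± 0.19 on the log2 scale (edgeR adjusted p = 0.00311), with the call kept in all 6 leave-outs. In mice 1 to 6 the value was -0.66 (adjusted p = 0.348).

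Avil, which encodes advillin, an actin-binding protein of sensory ganglion neurons (chromosome 10), had 18, 5 and 13 counts in WT mice 7, 10 and 12 and 49, 90 and 47 in ETAQ mice 8, 9 and 11. The ETAQ counts were higher in all 3 mice, with a ratio of 5.45 by library totals (exact 95% interval 3.8 to 8.02, counting error only). The log2 fold change was 2.38 ± 0.41 (edgeR adjusted p = 0.0223), and the call was lost without mouse 9 (0.0551), 8 (0.0723) or 12 (0.135). The value in mice 1 to 6 was 2.41 (adjusted p = 0.0367). P2rx3, the ATP-gated channel of sensory neurons (chromosome 2, 84998583 to 85037462), had a mean above 5 CPM only through the ETAQ mice, with 1.65, 1.66 and 1.36 normalised CPM in WT and 11.8, 12.3 and 9 in ETAQ (log2 fold change 2.82 ± 0.15, edgeR adjusted p = 8.65e-07). Of the 9 sensory ganglion genes tested, 2 rose and 4 fell, beside 0.328% and 0.898% of all genes. The summed level of that list was lower in ETAQ, at 83.2 to 93.2 CPM against 121 to 138 in WT. Calca, Calcb and Prph are among the 4 that fell and also belong to the motor neuron list below. The falls in the 2 lists are therefore partly the same genes. In that sum, Prph had a mean of 53.4 normalised CPM in WT and 30.2 in ETAQ, and Calca 22.3 and 4.73. Avil and P2rx3 thus rose against most of the list's calls. Some other genes that define sensory ganglia were near 0, with Scn10a at 0 to 2 counts in each of the 6 libraries, Mrgprd at 0 to 2 and Trpv1 at 2 to 6. Mouse 1 of the other set had 90 counts of Scn10a.

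**Figure D4:**
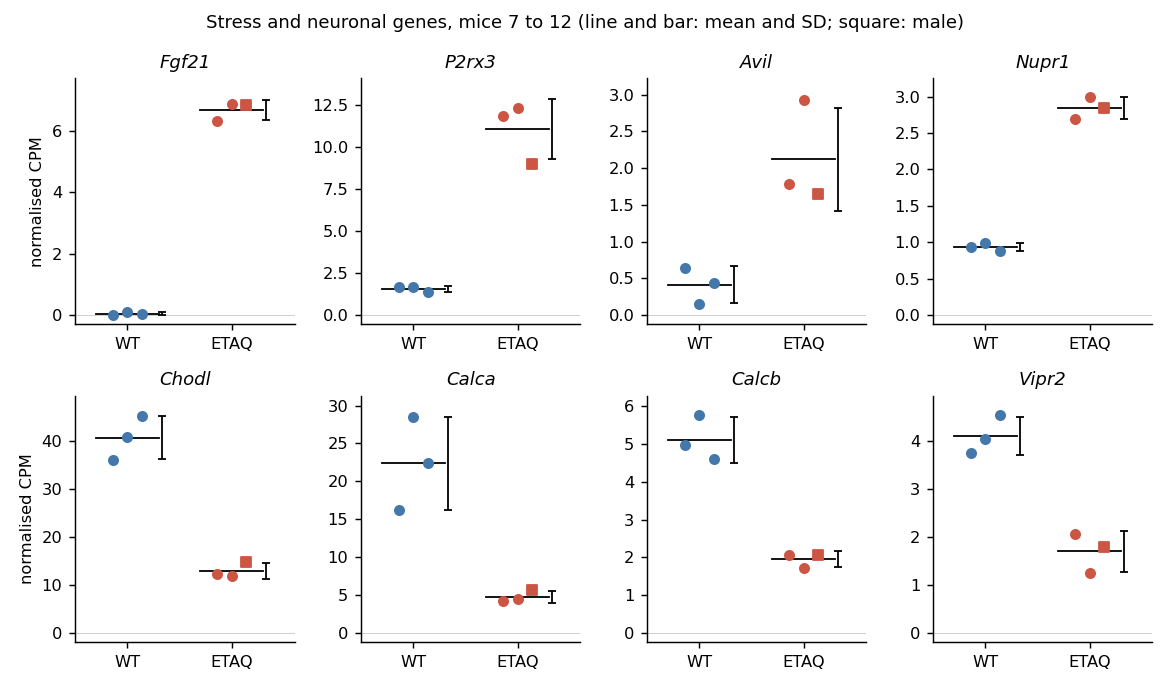
Normalised CPM of 8 stress and neuronal genes in mice 7 to 12, with 1 point per mouse (square for the male mouse 11), a line at the mean and a bar of 1 SD per genotype (n = 3). Fgf21, P2rx3, Avil and Nupr1 are higher and Chodl, Calca, Calcb and Vipr2 lower in all 3 ETAQ mice, with Calca spread from 16.2 to 28.5 within WT.

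Motor neuron genes accounted for most of the neuronal calls, with 10 of 19 tested lower (9 or 10 in each leave-out) and none higher, beside 0.898% lower over all genes. Their summed level was 1030 to 1050 CPM in WT against 755 to 807 in ETAQ. Chodl, which encodes chondrolectin, a surface protein enriched in fast motor neurons (chromosome 16, 78930948 to 78951733), fell from 36.1, 40.8 and 45.2 normalised CPM to 12.2, 11.8 and 14.8 (log2 fold change -1.66 ± 0.11, edgeR adjusted p = 3.85e-05). Chat, which makes acetylcholine, fell from 24.0, 24.2 and 25.2 to 16, 14.4 and 15.7 (-0.67 ± 0.07, edgeR adjusted p = 0.000126). Neither gene overlapped between the genotypes. Transcription factors that mark motor neurons did not pass. Mnx1 stood at 1.87, 2.10 and 1.67 in WT and 1.74, 1.76 and 1.75 in ETAQ (-0.10 ± 0.17, edgeR adjusted p = 0.888). Isl1 was at 0.24 ± 0.31 and Isl2 at -0.65 (edgeR adjusted p values of 0.851 and 0.521). Means of Mnx1, Isl1 and Isl2 were only 1.81, 1.59 and 1.13 normalised CPM, so these values do not show that the factors stayed level. Calca, the alpha form of CGRP, fell from 16.2, 28.5 and 22.4 to 4.18, 4.42 and 5.60, the lowest fold of the list at -2.24 ± 0.26. The WT mice spread widely, its adjusted p was 0.0299, and the call was lost without mouse 11 (0.114), 12 (0.155), 8 (0.166) or 9 (0.187) and with the sex term (0.097). The list also holds genes of other cells, since Calca, Calcb and Prph are made by sensory neurons too.

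Receptors, channels and transcription factors of cord neurons formed separate lists, to be read beside the 0.328% of all genes that rose and the 0.898% that fell. Of 33 G protein-coupled receptors, 2 fell (Vipr2 and Htr2a). Htr2a, a serotonin receptor of motor neurons (chromosome 14, 74640840 to 74709494), stood at 12.2, 13 and 12.9 normalised CPM in WT and at 9.95, 9.59 and 10.2 in ETAQ (log2 fold change -0.36 ± 0.08, edgeR adjusted p = 0.0375). The genotypes did not overlap, and the call was lost without any mouse, at adjusted p values of 0.0555 (without mouse 7), 0.0857 (12), 0.099 (11), 0.131 (8), 0.14 (10) and 0.151 (9). Of 30 channel genes P2rx3 rose, and Kcnj14 (-1.10 ± 0.07) and Kcng4 (-0.40 ± 0.04), both potassium channel genes, fell. For Kcnj14, 24.6% of the 75-base sequences also occur in other genes. Of 31 interneuron transcription factors, Lhx4 fell from 8.26, 8.63 and 8.17 to 5.74, 4.55 and 5.74 (-0.65 ± 0.11, edgeR adjusted p = 0.0109), with the call lost only without mouse 10 (0.0589). The 21 neuropeptide genes other than Calca and Calcb did not pass, among them Sst (0.08 ± 0.07) and Tac1 (0.11 ± 0.06) of the dorsal horn.

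Cd24a, Cdsn and the neurofilament genes, which had small p outside the lists, were called in mice 1 to 6 too. Serpinf1 and Mrvi1 above were not (edgeR adjusted p values of 0.0802 and 0.0534 in mice 1 to 6). Cd24a, a small anchored surface protein of neurons and epithelia (chromosome 10, 43578284 to 43584265), had the smallest p of all genes in mice 7 to 12. It stood at 91.8, 87.0 and 91.6 normalised CPM in WT and at 40.1, 42.9 and 43.3 in ETAQ (log2 fold change -1.10 ± 0.05, edgeR adjusted p = 1.07e-07), and mice 1 to 6 gave -0.91 (adjusted p = 3.23e-05). Cdsn, an adhesion protein of skin that was almost silent in WT cord, had 5, 5 and 3 counts in WT and 124, 100 and 106 in ETAQ, a ratio of 26.8 (exact 95% interval 15.4 to 50.8). In mice 1 to 6 its log2 fold change was 4.71 (adjusted p = 1.7e-05). The neurofilament genes Nefl, Nefm and Nefh fell by 0.52 ± 0.03, 0.58 ± 0.03 and 0.57 ± 0.04 on the log2 scale, and by 0.46, 0.52 and 0.52 in mice 1 to 6. In the annotation, 32.8% of the exon bases of Nefl and 19.2% of those of Nefm overlap a gene on the opposite strand, and the strand setting of the counting is not given in the sources used here. On chromosome 14, 40 of 601 genes tested were called (6.66%), against 1.02% on the others together. The 40 include copies that share sequence, so a locus can be counted more than once. Tmem254a and Tmem254b had equal values in every library, and 73.4% and 100% of their 75-base sequences occur in other genes. Clone-named genes near the start of the chromosome are also among the 40, and their shared sequence was not measured. Nefl, Nefm, Chat, Sncg, Htr2a, Lcp1 and Fam167a lie on it, and the part of that position in their change was not tested.

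Mice 7 to 12 called 44 genes that the fit over all 12 mice with sex as a covariate did not call, 16 higher and 28 lower, where the latter called 330 of 17189 genes (1.92%). The 2 fits share libraries, so their values are only set side by side. The fit over all 12 mice had no term for the set of mice, so level differences between the sets added to its spread. A call lost there does not show that the effect was absent in mice 1 to 6. After Nupr1, the named genes of this kind with a symbol were mt-Nd2, Itpr3, Fam167a, Lcp1, Duxbl2, Tubb4a and Anxa2. Itpr3, an inositol trisphosphate receptor, fell from 19.7, 16.2 and 19.5 to 11.4, 11.6 and 11.2 normalised CPM (log2 fold change -0.70 ± 0.08, edgeR adjusted p = 0.000682), and over all 12 mice its adjusted p was 0.253. Mice 1 to 6 alone called it lower too (-0.37, edgeR adjusted p = 0.038). Lcp1, the actin bundler plastin of leukocytes and microglia, fell from 40.4, 43.9 and 43.3 to 33.3 in each ETAQ mouse (-0.35 ± 0.05, edgeR adjusted p = 0.00283), and over all 12 mice its adjusted p was 0.166. In mice 1 to 6 Lcp1 was lower without overlap and did not pass (-0.29, edgeR adjusted p = 0.0589). Anxa2, an annexin of vessel, meningeal and other surface cells, fell from 25.3, 28.1 and 22.6 to 17.4, 16.6 and 18.7 (-0.53 ± 0.08, edgeR adjusted p = 0.00583), against 0.178 over all 12. It was likewise lower without overlap in mice 1 to 6 (-0.45, edgeR adjusted p = 0.152). Mfsd2a and Igfbp2 belong here too, with adjusted p values of 0.484 and 0.582 over all 12 mice. In mice 1 to 6 Mfsd2a was at -0.21 (edgeR adjusted p = 0.168). With the 12 libraries fitted as 4 genotype-by-set groups, the effect in mice 7 to 12 was called for some of these genes. They were Itpr3 (edgeR adjusted p = 0.000167), Lcp1 (0.00344), Mfsd2a (0.011), Anxa2 (0.0285) and Tubb4a (0.0285). Those not called were Nupr1 (0.124), Fam167a (0.193), Igfbp2 (0.41), Duxbl2 (0.586) and mt-Nd2 (0.712). All sequence of Duxbl2 is shared with other genes, so its value is uncertain.

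The genotype effect in mice 7 to 12 was then set against that in mice 1 to 6. Of the 202 genes called in mice 7 to 12, 92 were also called in mice 1 to 6, all in the same direction. That is 45.5% of the calls in mice 7 to 12 and 63.4% of all 145 calls in mice 1 to 6. Among the 16343 genes tested in both sets were all 202 of the former calls and 141 of the latter. The sign was the same for 195 of the 202 (96.5%), against 58.5% over all genes. The difference of the effects was not called for any of 17189 genes in edgeR (0%), with 750 (4.36%) at an unadjusted p under 0.05, and DESeq2 called 8 and limma-voom 0. In simulated counts for that difference with 17189 genes, 2% of genes changed 1.2-fold, 50% changed 1.5-fold, 72% changed 2-fold and 92% changed 4-fold were called. Among the vascular, meningeal and immune genes named above, the difference had unadjusted p values of 0.0958 for Mfsd2a, 0.887 for Apln, 0.636 for Igfbp2, 0.733 for Cd55 and 0.6 for Spp1. For Notch3 it was 0.000347 (adjusted p = 0.852), with log2 fold changes of -0.12 in mice 7 to 12 and 0.20 in mice 1 to 6. A gene called in one set and not in the other is therefore not shown to differ between them.

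The spread between mice of the same genotype was described for the same lists. The median standard deviation (SD) of log2(CPM + 0.5) over all genes was 0.0874 in mice 7 to 12 and 0.0911 in mice 1 to 6. For meningeal genes it was 0.155 against 0.496, and 24 of the 26 genes varied less in mice 7 to 12, beside 54.2% of all genes. Pericyte and smooth muscle genes gave 0.156 against 0.218 (17 of 18 smaller), and homeostatic microglia genes 0.139 against 0.201 (16 of 20). The endothelial list hardly differed, at 0.129 against 0.141 (13 of 34 smaller), and neither did low-expressed neuronal genes, at 0.17 against 0.188 (27 of 52). These are descriptions without a test, since genes of a list share their cells, and the meningeal list also stood at a lower level in mice 7 to 12.

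**Figure D5:**
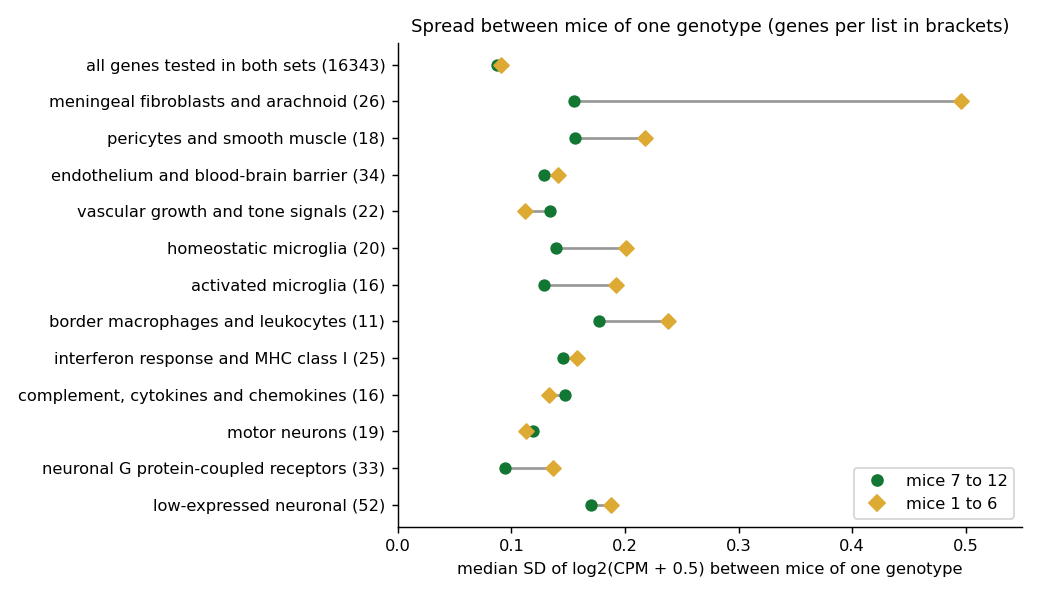
Median SD of log2(CPM + 0.5) between mice of the same genotype for 12 gene lists and for all genes tested in both sets, as green circles for mice 7 to 12 and yellow diamonds for mice 1 to 6, with the number of genes in brackets. The meningeal list lies at 0.155 and 0.496, and the endothelial list at 0.129 and 0.141.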

How the data were processed

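The deposited tables give, per the file headers, an expected count, a TPM and an FPKM for each of 38924 genes per mouse. Reads were handled with RSEM 1.2.12 and Bowtie2 2.2.0, per the submitters' processing notes. Genome build, annotation and strand setting are not given in the sources used here. TPM values in the deposited tables allow for gene length and served only to describe levels. The deposited FPKM values were not used. Of the authors' expected counts, 15.4% were not whole, and they were rounded here.

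Mice 7 to 12 were fitted alone in R 4.3.3 with edgeR 4.0.16 (filterByExpr with a minimum count of 10, TMM, robust quasi-likelihood test, two-sided, Benjamini-Hochberg threshold 0.05). The difference between the sets came from a fit of 4 genotype-by-set groups. DESeq2 1.42.0 and limma 3.58.1 (voom) were alternatives. Each SE was obtained from the fold change and its F statistic. The fits were tested on simulated data before use.

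The members, 25 gene lists (525 genes, 3 of 536 entries unmatched) and tests were chosen with earlier results of these data known. The text names Gars, Fgf21, Chodl, P2rx3, 8 genes in each direction with the smallest p, up to 8 not called over all 12 mice, and up to 3 called or the leading 2 uncalled members per list, and picks from these. Other list members and genes named were chosen after their values were seen. Of the 202 calls, 25 had only a clone name or a duplicated symbol and were not named. Positions came from GENCODE M21 by Ensembl ID (96.6% matched), and 75-base sequences shared by at least 5% with other genes mark uncertain genes.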

Additional observations from a re-analysis of the deposited data

How the results depend on the processing

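The 48 genes chosen by the naming rule kept the sign of their log2 fold change in mice 7 to 12 under the alternatives run for that comparison, and other genes named were not followed through all of them. The 202 calls of mice 7 to 12 (54 higher, 148 lower) became 349 (98 and 251) with no filter on low counts and 118 (31 and 87) with a sex term, which takes the male mouse 11 out of the genotype estimate. DESeq2 gave 270 and limma-voom 187. Of the 349, 338 were among the 16487 genes of the first test and 200 were called there too. Leaving out each mouse gave 120 to 175 calls (31 to 49 higher, 88 to 128 lower). Vascular calls, 2 at first, were 1 in limma-voom, 0 with the sex term, 1 with all 12 libraries in the same fit, 3 in DESeq2 and with no filter, and 0 to 2 over the leave-outs. The meningeal call became 0 with all 12 libraries in the fit and 0 to 1 over the leave-outs. Immune calls were 3 in DESeq2 and with no filter and 1 to 2 over the leave-outs, and low-expressed neuronal calls 2 to 3 over the leave-outs, and the latter were 1 with a limit of 2 CPM. The difference between the sets gave 0 calls in edgeR, 8 in DESeq2 and 0 to 2 over the leave-outs, with 1 without mouse 1 and 2 without mouse 4. Apart from the smaller numbers of mice or genes, the cause was not tested. Median log2 fold changes of all genes moved only from 0.0026 under TMM to 0.0018 under DESeq2's size factors. No paired analysis was possible because each mouse number occurs in a single genotype. The filter on low counts left out 18 of 29 border macrophage and leukocyte genes, 6 of 22 complement, cytokine and chemokine genes, 7 of 16 sensory ganglion genes, 10 of 11 marrow neutrophil genes and 10 of 16 skeletal muscle genes.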
